A study of Homo sapiens with 6 samples.

Results

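The genes described here are the machinery that copies DNA, 43 in all, chosen by name from textbook roles; no measured value entered the rule, though earlier results of these data were known when it was set. All 43 were measured among 18404 genes, each through the 1 probe set that the platform annotation gives to that symbol alone. The cells were MEC-1, an established human B cell line from chronic lymphocytic leukemia, given a short hairpin RNA (shRNA) by lentivirus. A hairpin against UGT2B17, an enzyme that conjugates steroids and drugs with glucuronic acid, was used for 3 of the 6 arrays and a scrambled hairpin, the control, for the other 3. Both groups shared the cell line, the lentiviral delivery and the medium. The labels give neither the number of hairpin sequences nor whether cells were cloned, selected or grown as separate cultures. The p-values therefore measure only the spread between these arrays, and effects of lower UGT2B17, of the hairpin itself and of culture differences cannot be told apart.

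A cell prepares each origin of replication in G1 phase, when the origin recognition complex (ORC), CDC6 and CDT1 load the ring-shaped MCM helicase onto DNA, a step called licensing. In S phase CDC45 and the GINS complex join the helicase and open the fork, primase and polymerase alpha lay down primers, and polymerases delta and epsilon copy the strands while held by the PCNA clamp. Many of these genes are transcribed as cells enter S phase, under the E2F family of transcription factors, so their summed mRNA is widely used as a sign of proliferation. In RNA from a bulk culture, fewer cells in S phase and less RNA per cell cannot be told apart.

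UGT2B17 itself read 3.19, 3.27 and 3.17 log2 units on knockdown replicates 1 to 3 and 3.95, 3.69 and 3.91 on scrambled replicates 1 to 3, a log2 fold change of −0.64 ± 0.08 (SE; limma, adjusted p = 0.00654). The UGT2B17 probe set had a mean level at percentile 1.98 of the genes tested, at the dim end where RMA compresses differences. Its fold change is thus a poor measure of the depth of knockdown. The replication probe sets had mean levels between percentiles 58.0 and 98.7, so none was near that end. The 6 measured B cell markers (MS4A1, CD79A, CD79B, PAX5, CD22 and BLK) lay between percentiles 88.7 and 99.6. Markers of other cells came in 4 lists (T and NK, myeloid, erythroid and platelet, epithelial and fibroblast), 21 in all. The list medians ran from percentile 13.8 to 38.3, and the single markers from 0.84 to 55.8. Of these, KLRD1 was called lower, at −0.64, and KRT18 higher, at 0.32 (adjusted p = 0.0062 and 0.0494). Scrambled replicate 3 stood apart: its values differed from the mean of the scrambled arrays by 0.138 log2 units (root mean square over all genes tested), and the other 5 arrays differed from their group means by 0.0771 to 0.112. The main results are therefore given with and without that array. Its summed B cell marker level was 64.98 log2 units, against 65.15 to 65.41 on the other arrays.

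No replication gene passed the test between knockdown and scrambled arrays, yet most leaned to lower values in the knockdown. Of 43 genes, 0 passed in either direction (limma, Benjamini-Hochberg adjusted p under 0.05 over all genes tested), where 3.61% of all genes did, and 0 passed at an adjusted p under 0.1, where 6.56% did. The smallest adjusted p was 0.166, for the helicase subunit gene GINS1. The log2 fold change, knockdown minus scrambled, was below 0 for 37 of 43 genes, or 86.0%, against 50.7% of all genes. Its median was −0.12, or 7.80% lower, against −0.0022 over all genes tested, and it was −0.19 without scrambled replicate 1. At an unadjusted p under 0.05 there were 10 of the 43, or 23.3%, and all 10 were lower. Of all genes, 18.2% reached that level in either direction and 9.45% did so as lower.

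The lean was smaller without scrambled replicate 3. The median log2 fold change of the 43 genes was then −0.07, or 4.55% lower, and 34 of 43 lay below 0, against 50.2% of all genes. None of the 43 passed, where 4.12% of all genes did (smallest adjusted p = 0.245, GINS1), and 2 had an unadjusted p under 0.05, GINS1 and TYMS, against 18% of all genes. With limma's array weights, which ran from 0.2496 for scrambled replicate 3 to 6.12 for scrambled replicate 2, 7 of the 43 were called lower: MCM2, MCM5, GINS1, POLA1, POLD2, FEN1 and TYMS. That is 16.3% of the 43, and that setting called 19.1% of all genes in either direction and 9.29% as lower.

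The intervals give, for each gene, a range for the change that reflects only the spread between these arrays. With all arrays, the 95% interval of 39 of 43 genes lay within 0.5 log2 units of 0, a 1.41-fold change, as did that of 90.9% of all genes. The lowest bound was −0.58, for GINS4, and the highest 0.31, for ORC4. Without scrambled replicate 3, the intervals of all 43 genes lay within 0.5 log2 units, between −0.37 for POLD1 and 0.32 for MCM6. In that setting, 17288 of the 18404 genes tested had intervals within 0.5 log2 units.

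**Figure D1:**
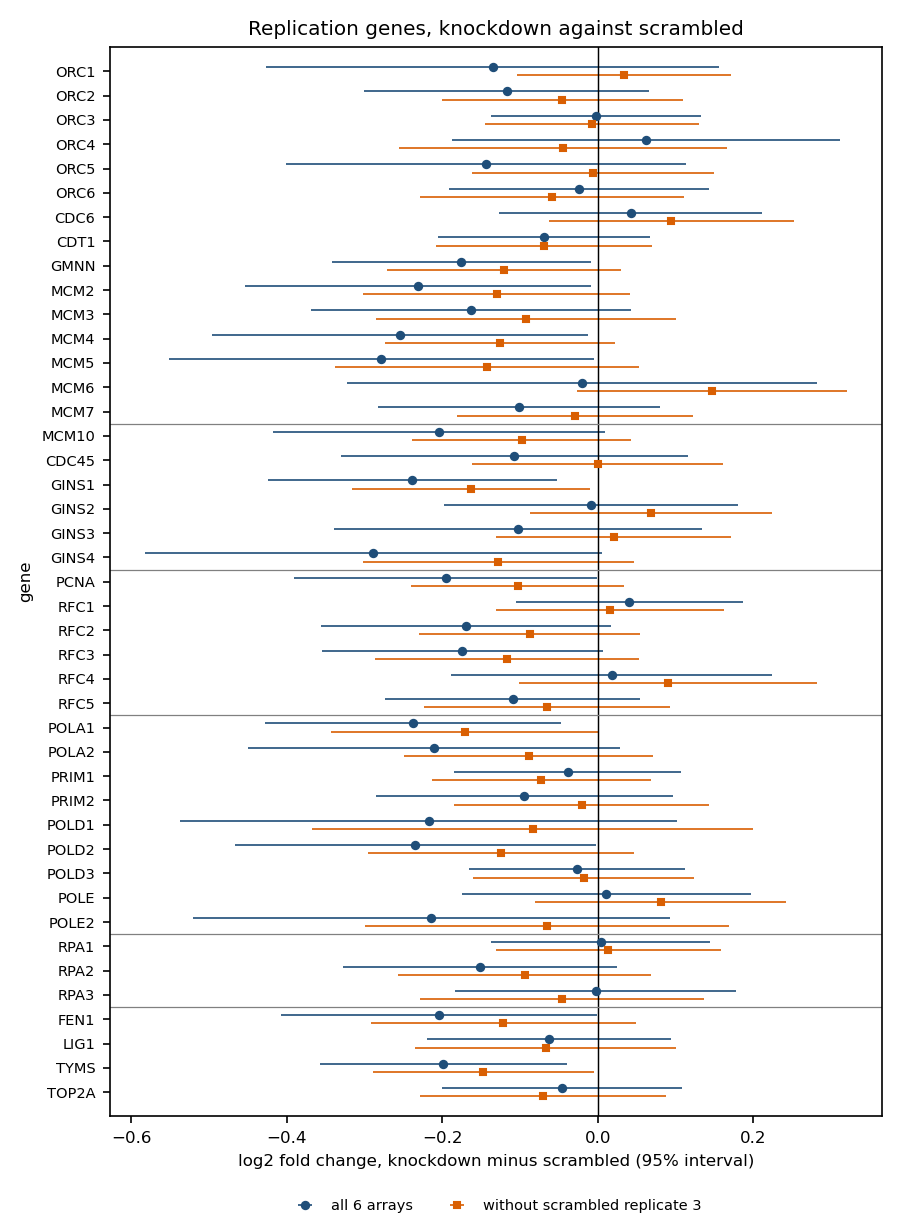
Log2 fold change of each of the 43 genes, knockdown minus scrambled, on the horizontal axis, with 95% intervals from limma, for all 6 arrays (circles) and without scrambled replicate 3 (squares); grey lines part the roles. Of the circles, 37 lie below 0 and the median is −0.12; without that array the median is −0.07.

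Scrambled replicate 3 stood above the other arrays in most of these genes. It was the highest of the 6 arrays for 31 of 43 genes, against 28.9% of all genes, and the median over the 43 genes of its value minus the gene mean was 0.20 log2 units. The other arrays lay at −0.09, −0.05 and −0.03 (knockdown replicates 1 to 3), −0.04 (scrambled replicate 1) and 0.02 (scrambled replicate 2). By its median, scrambled replicate 1 sat among the knockdown arrays. Knockdown replicate 1 was the lowest of the 6 arrays for 20 of 43 genes (15.8% of all genes). Over all genes tested these medians ran from −0.010 to 0.0056, and the quantile normalisation in RMA holds them near 0.

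Each scrambled array can be set against the 3 knockdown arrays. Scrambled replicate 3 lay above all 3 knockdown arrays for 33 of 43 genes (36.4% of all genes did so), scrambled replicate 2 for 25 (30.3%) and scrambled replicate 1 for 18 (30.1%). Of the other 25 genes, scrambled replicate 1 lay within the knockdown range for 17 and below it for 8. Of the 18404 genes tested, it lay within that range for 7480 and below it for 5386. The spread within groups differed too: the SD of the scrambled arrays exceeded that of the knockdown arrays for 36 of 43 genes, or 83.7%, against 62.1% of all genes. Over the 5 arrays other than scrambled replicate 3, the whole range of a gene had a median of 0.18 log2 units for the 43 genes and 0.23 for all genes tested.

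The groups did not overlap for 11 of 43 genes, all lower in the knockdown, where 13.1% of all genes were lower without overlap. They were CDT1, GMNN, MCM2, MCM4, MCM10, GINS1, PCNA, RFC2, RFC3, POLA1 and TYMS. The count was 12 without scrambled replicate 3, beside 2 genes, ORC1 and MCM6, that were then higher in the knockdown without overlap (17.9% and 17.4% of all genes). Without scrambled replicate 1 the count of lower genes was 24, where 20.1% of all genes were lower without overlap.

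**Figure D2:**
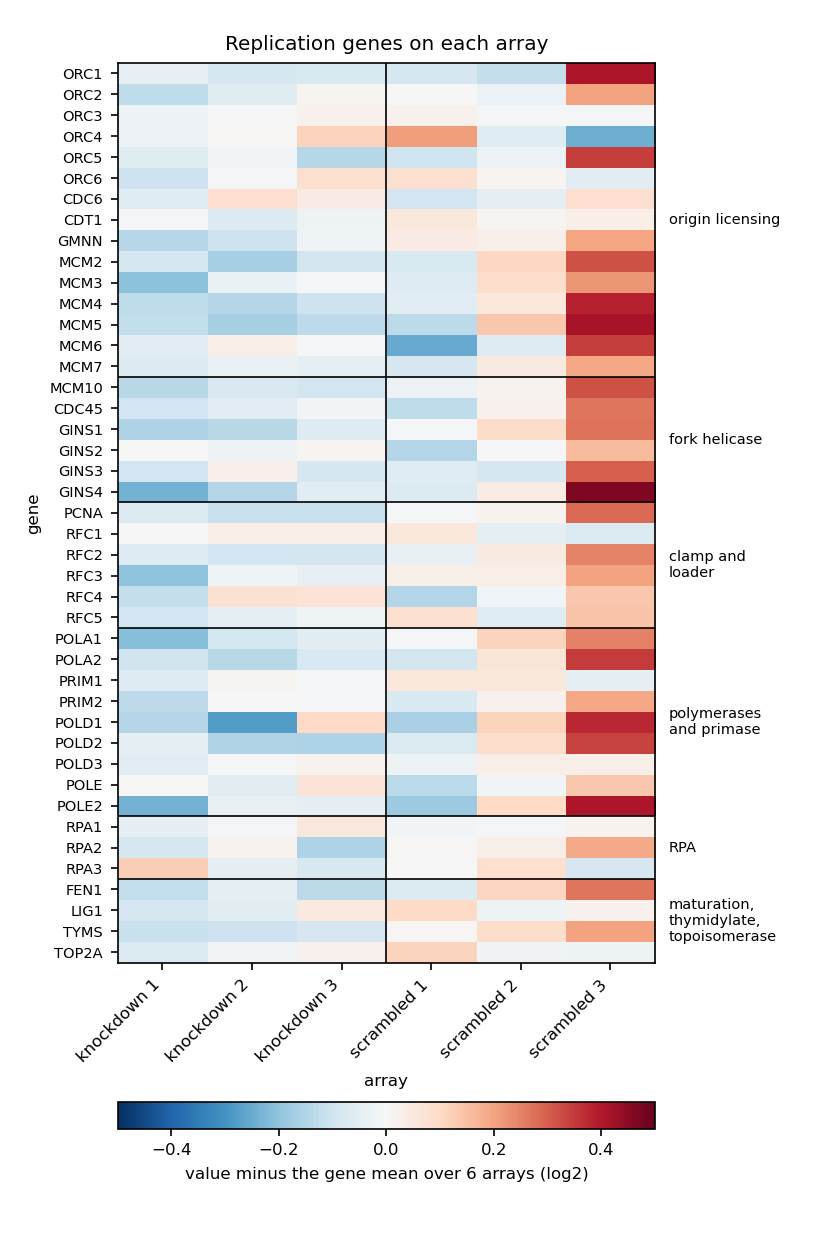
Each row is a gene, each column an array, and the colour is the log2 value minus the mean of that gene over the 6 arrays; black lines part the roles and the groups. The column of scrambled replicate 3 is the highest for 31 of 43 genes, while ORC4, RFC1, RPA3 and a few others do not share this.

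None of the 15 licensing genes passed the test, and the MCM subunits among them differed from one another. The lowest fold changes of the 15 licensing genes were those of MCM5, MCM4 and MCM2, and the highest that of ORC4. The median log2 fold change of the 15 genes was −0.12, and −0.05 without scrambled replicate 3. MCM4, a core subunit of the helicase ring, read 9.54, 9.52 and 9.56 on the knockdown arrays and 9.61, 9.72 and 10.05 on the scrambled arrays. The knockdown arrays were close to each other and below all scrambled arrays, of which replicate 3 stood furthest off. The log2 fold change was −0.25 ± 0.11 (SE; adjusted p = 0.252), and −0.13 without scrambled replicate 3 (adjusted p = 0.355).

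MCM2, the subunit that also chaperones parental histones, read 9.45, 9.37 and 9.45 with the knockdown and 9.46, 9.65 and 9.86 with scrambled shRNA. Scrambled replicate 1 was level with the upper knockdown arrays and the groups barely parted. The difference was −0.23 ± 0.10 (SE; adjusted p = 0.256), and −0.13 without scrambled replicate 3 (adjusted p = 0.422). MCM5 and MCM6 were singled out here after their values were seen. MCM5 read 9.89, 9.85 and 9.89 in the knockdown and 9.89, 10.15 and 10.43 in the scrambled arrays, a difference of −0.28 ± 0.12 (SE; adjusted p = 0.266), and −0.14 without scrambled replicate 3 (adjusted p = 0.442). Only its scrambled replicates 2 and 3 lay above the knockdown arrays. MCM6 read 9.09, 9.17 and 9.14 in the knockdown and 8.89, 9.08 and 9.49 in the scrambled arrays. Its scrambled arrays lay on both sides of the knockdown arrays, and the difference turned from −0.02 to 0.15 without scrambled replicate 3 (adjusted p = 0.959 and 0.360). MCM3 and MCM7 differed by −0.16 and −0.10, and by −0.09 and −0.03 without that array.

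GMNN encodes geminin, which binds CDT1 and blocks new licensing after S phase begins. It read 8.62, 8.66 and 8.75 in the knockdown and 8.81, 8.79 and 8.96 with scrambled shRNA, without overlap, a difference of −0.18 ± 0.07 (SE; adjusted p = 0.2505). Without scrambled replicate 3 the difference was −0.12 (limma, adjusted p = 0.390). CDT1, the loader that geminin holds back, read 8.997, 8.940 and 8.980 against 9.062, 9.022 and 9.041. These groups did not overlap either, and scrambled replicate 3 lay between the other scrambled arrays. The difference, −0.07 ± 0.06 (SE; adjusted p = 0.613), was the same without that array, at −0.07. CDC6, the ATPase that works with ORC, differed by 0.04, and by 0.09 without scrambled replicate 3.

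The ORC subunits differed among themselves. ORC1, the subunit that comes and goes with the cell cycle, read 8.12, 8.08 and 8.09 in the knockdown and 8.08, 8.05 and 8.57 with scrambled shRNA. It was singled out, like ORC4, after its values were seen. Scrambled replicate 3 lay 0.45 log2 units above the next array while the other 5 arrays spanned 0.077, and the difference turned from −0.14 to 0.03 without it. ORC4, a subunit present throughout the cycle, read 8.93, 8.97 and 9.07 against 9.17, 8.90 and 8.71, so scrambled replicate 3 was its lowest array. Its difference was 0.06 ± 0.11 (SE; adjusted p = 0.825). ORC3 differed by −0.0022 ± 0.06, with all 6 arrays between 9.92 and 9.97. ORC2, ORC5 and ORC6 differed by −0.12, −0.14 and −0.02, and by −0.05, −0.0064 and −0.06 without scrambled replicate 3.

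**Figure D3:**
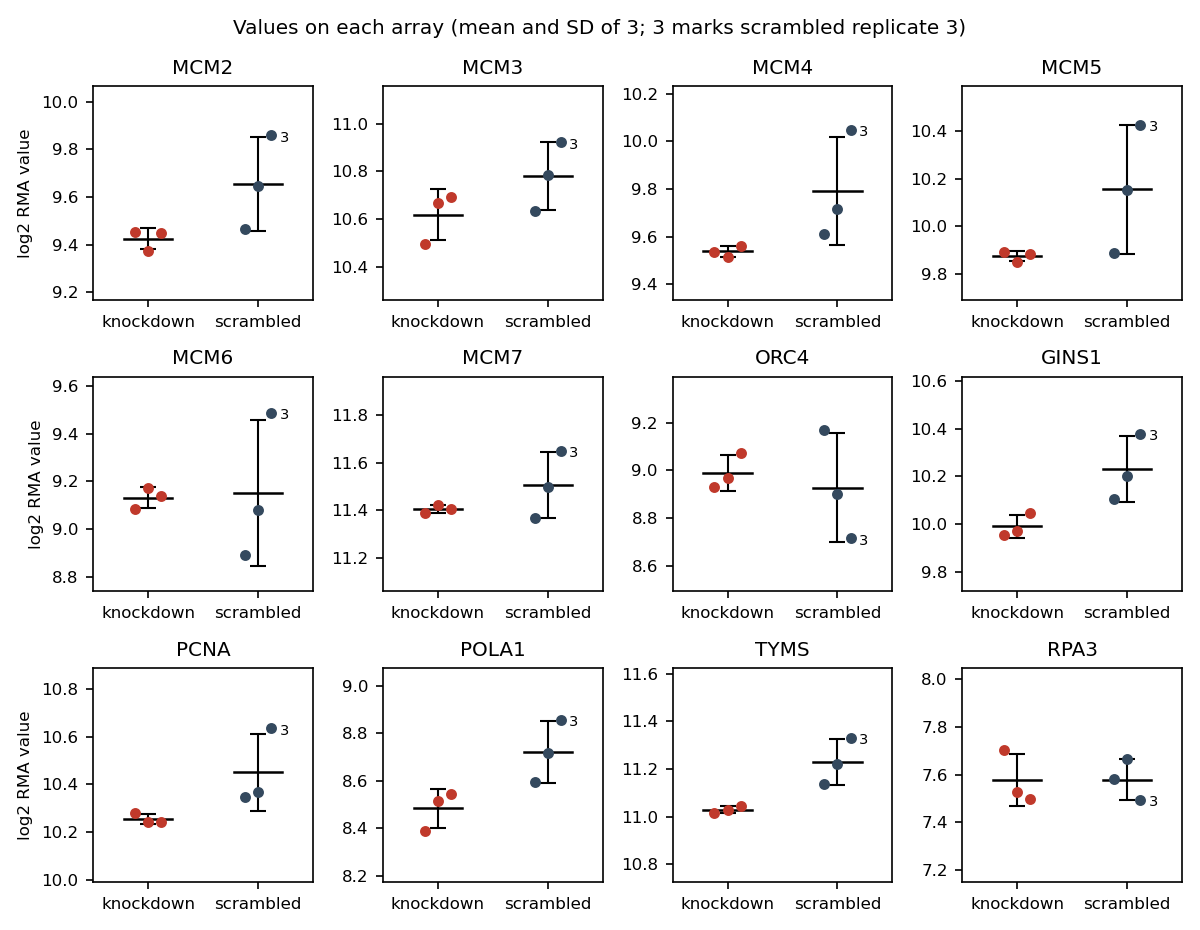
Log2 RMA values of 12 genes on each array, with points for arrays, lines for means and bars for the SD of 3 arrays; every panel spans the same height, and a 3 marks scrambled replicate 3. That array is the highest for 10 of the 12 genes, and the exceptions are ORC4 and RPA3.

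Genes of the active fork helicase had scrambled replicate 3 as the highest array in 6 of 6 cases, against 28.9% of all genes. Their median log2 fold change was −0.16, and it was −0.05 without that array and −0.23 without scrambled replicate 1. GINS1, a subunit of the GINS complex, read 9.95, 9.97 and 10.05 in the knockdown and 10.11, 10.20 and 10.38 with scrambled shRNA, without overlap. It had the smallest p of the 43 genes, with a difference of −0.24 ± 0.08 (SE; 95% interval −0.42 to −0.05; adjusted p = 0.166). Without scrambled replicate 3 the difference was −0.16 (adjusted p = 0.245). GINS4, another subunit, read 7.60, 7.69 and 7.78 against 7.77, 7.87 and 8.30. With all arrays it had the lowest fold change of the 43 genes, −0.29 ± 0.13 (SE; adjusted p = 0.285), with scrambled replicate 1 inside the knockdown range. Without scrambled replicate 3 it was at −0.13 (adjusted p = 0.440), and POLA1 was then the lowest, at −0.17.

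MCM10, which helps the assembled helicase to start, read 8.82, 8.89 and 8.87 in the knockdown and 8.93, 8.98 and 9.28 in the scrambled arrays. The groups did not overlap and the difference was −0.20 ± 0.09 (SE; adjusted p = 0.296), or −0.10 without scrambled replicate 3. CDC45, which bridges helicase and GINS, differed by −0.11, and its difference was −7.0e-05 without that array. GINS2 and GINS3 differed by −0.0087 and −0.10, and both lay above 0 without it, at 0.07 and 0.02.

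Values of the sliding clamp and its loader varied by subunit, with a median log2 fold change of −0.14, and −0.08 without scrambled replicate 3. PCNA, the ring that tethers polymerases to DNA, read 10.28, 10.24 and 10.24 in the knockdown and 10.35, 10.37 and 10.64 with scrambled shRNA. The groups did not overlap, and the difference was −0.20 ± 0.09 (SE; adjusted p = 0.273), or −0.10 without scrambled replicate 3. RFC2, a small subunit of the clamp loader, read 10.46, 10.42 and 10.43 against 10.48, 10.56 and 10.77, a difference of −0.17 ± 0.08 (SE; adjusted p = 0.325), or −0.09 without that array. RFC3, another small subunit, read 10.823, 11.001 and 10.984 against 11.052, 11.055 and 11.225, at −0.17 ± 0.08 (SE; adjusted p = 0.293), or −0.12 without that array. Both separated the groups. RFC1, the large subunit, differed by 0.04 and RFC4 by 0.02, with RFC5 at −0.11. Without scrambled replicate 3 these were 0.02, 0.09 and −0.07.

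Polymerase and primase genes had a median log2 fold change of −0.21, and it was −0.07 without scrambled replicate 3 and −0.13 without knockdown replicate 2. With all arrays this was the lowest median of the 6 roles, but in each of those 2 settings another role was lower. POLA1, the catalytic subunit of polymerase alpha, read 8.39, 8.52 and 8.55 in the knockdown and 8.59, 8.72 and 8.86 in the scrambled arrays, without overlap. Its difference of −0.24 ± 0.08 (SE; adjusted p = 0.178) was −0.17 without that array (adjusted p = 0.284). POLA2, its partner subunit, read 8.92, 8.88 and 8.94 against 8.92, 9.08 and 9.37. Scrambled replicate 1 lay inside the knockdown range, and the difference was −0.21 ± 0.11 (SE; adjusted p = 0.341), or −0.09 without scrambled replicate 3. POLD2, an accessory subunit of polymerase delta, read 10.65, 10.55 and 10.54 against 10.63, 10.78 and 11.04, with the same overlap and a difference of −0.23 ± 0.10 (SE; adjusted p = 0.270), or −0.12 without scrambled replicate 3.

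The rest of this group ran from −0.22 to 0.01. POLD1 and POLE2 differed by −0.22 and −0.21, and both had wide spreads, with scrambled SDs of 0.27 and 0.29. Without scrambled replicate 3 they were at −0.08 and −0.07. The catalytic subunit of polymerase epsilon, POLE, differed by 0.01, the subunit POLD3 by −0.03, and the primase genes PRIM1 and PRIM2 by −0.04 and −0.09. Without scrambled replicate 3, POLE differed by 0.08, POLD3 by −0.02, PRIM1 by −0.07 and PRIM2 by −0.02. Scrambled replicate 2 lay above all 3 knockdown arrays for 8 of the 9 polymerase genes (30.3% of all genes). Scrambled replicate 3 did so for 8 (36.4%) and scrambled replicate 1 for 2 (30.1%).

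RPA, the trimer that coats single-stranded DNA, had scrambled replicate 3 as its highest array in 1 of 3 genes, against 28.9% of all genes. RPA1, the large subunit, read 8.86, 8.90 and 8.96 in the knockdown and 8.89, 8.90 and 8.92 in the scrambled arrays, and all scrambled arrays lay inside the knockdown range. Its difference was 0.0041 ± 0.06 (SE; 95% interval −0.14 to 0.15; adjusted p = 0.985). RPA2 read 8.52, 8.63 and 8.45 against 8.62, 8.64 and 8.80, a difference of −0.15 ± 0.08 (SE; adjusted p = 0.355), or −0.09 without scrambled replicate 3. RPA3, the smallest subunit, read 7.70, 7.53 and 7.50 against 7.58, 7.66 and 7.49, with scrambled replicate 3 as its lowest array and a difference of −0.0027 ± 0.08 (SE; adjusted p = 0.992).

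Among the genes that finish or feed synthesis, TYMS, thymidylate synthase and a target of fluoropyrimidine drugs, read 11.02, 11.03 and 11.05 in the knockdown and 11.14, 11.22 and 11.33 with scrambled shRNA. The knockdown arrays spanned little and lay below all scrambled arrays. The difference was −0.20 ± 0.07 (SE; adjusted p = 0.177), and −0.15 without scrambled replicate 3 (adjusted p = 0.259). FEN1, the nuclease that trims Okazaki fragment flaps, read 9.96, 10.03 and 9.95 against 10.01, 10.19 and 10.35, at −0.20 ± 0.09 (SE; adjusted p = 0.272), or −0.12 without scrambled replicate 3. Scrambled replicate 1 overlapped the knockdown. LIG1, the ligase that seals the fragments, read 8.01, 8.04 and 8.15 against 8.19, 8.07 and 8.12, at −0.06 ± 0.07 (SE; adjusted p = 0.705). TOP2A, the topoisomerase that untangles finished DNA and peaks later in the cycle, differed by −0.05, and scrambled replicate 1 was its highest array.

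The promoters are shown because many of these genes were high together on 1 array and many are known E2F targets. E2F activity was not measured, and its part in that pattern was not tested. Windows from 250 bases before to 50 bases after the start site came from RefSeq (GRCh38.p14). Of the 43 genes, 37 had a window, all but MCM4, MCM5, GINS4, POLD3, RPA2 and RPA3, and the first listed start was used for the 7 genes with several. An E2F-type motif (TTTCGCGC, TTTGGCGC, TTTCCCGC or TTTGCCGC on either strand, overlapping matches counted) was present in 18 of 37, or 48.6%, against 3.33% of the windows of 27305 genes. A CCAAT box on either strand was present in 21 of 37, or 56.8%, against 35.7%. Among the 14230 tested genes with a window, the shares were 4.53% for the E2F-type motif and 36.3% for the CCAAT box. The 250 bases before the start of 4 genes are given 5′ to 3′, with E2F-type matches in capitals. MCM6 has 4 matches in 2 overlapping pairs, MCM7 has 2 and PCNA has 1. ORC1, the gene with the largest gap between scrambled replicate 3 and the other arrays, has 0 exact matches. Its stretch does hold attggcgcgaag, which departs from the joined MCM6 pair only at its first and last base. The MCM6 stretch is chr2:135876444-135876693, that of MCM7 chr7:100101398-100101647, that of PCNA chr20:5126623-5126872 and that of ORC1 chr1:52404424-52404673, all on the minus strand.
MCM6: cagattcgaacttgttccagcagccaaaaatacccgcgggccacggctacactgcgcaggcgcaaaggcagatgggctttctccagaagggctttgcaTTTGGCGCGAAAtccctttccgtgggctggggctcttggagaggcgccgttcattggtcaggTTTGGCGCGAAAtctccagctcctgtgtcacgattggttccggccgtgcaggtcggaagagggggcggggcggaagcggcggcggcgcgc
MCM7: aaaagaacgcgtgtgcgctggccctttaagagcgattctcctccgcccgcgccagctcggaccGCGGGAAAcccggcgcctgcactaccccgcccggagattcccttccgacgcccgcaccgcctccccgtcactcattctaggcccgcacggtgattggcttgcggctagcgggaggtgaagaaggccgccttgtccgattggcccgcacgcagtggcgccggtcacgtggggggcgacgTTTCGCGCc
PCNA: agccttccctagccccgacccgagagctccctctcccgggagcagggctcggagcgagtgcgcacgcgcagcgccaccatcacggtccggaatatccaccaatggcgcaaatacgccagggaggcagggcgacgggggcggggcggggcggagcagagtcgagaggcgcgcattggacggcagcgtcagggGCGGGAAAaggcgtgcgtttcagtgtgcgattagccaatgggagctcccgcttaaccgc
ORC1: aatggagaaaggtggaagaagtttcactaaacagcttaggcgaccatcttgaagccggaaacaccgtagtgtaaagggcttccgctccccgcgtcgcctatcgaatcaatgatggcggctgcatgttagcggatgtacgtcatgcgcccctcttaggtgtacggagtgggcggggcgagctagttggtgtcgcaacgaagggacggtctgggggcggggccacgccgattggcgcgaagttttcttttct

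Genes with and without the E2F-type motif were then set side by side, with no test. Scrambled replicate 3 was the highest array for 14 of the 18 genes with a match and for 13 of the 19 without. Its median deviation from the gene mean was 0.21 log2 units in the former and 0.20 in the latter, and the median log2 fold changes were −0.13 and −0.11. Over all tested genes with a window, that array was the highest for 37.9% of those with a match and 30.1% of those without. Only exact matches were counted, so genes without a match can hold near matches, as ORC1 does. A match is a description of these letters and does not show binding.

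Other genes of the replication and cell cycle pathways were taken from lists set by known function, with earlier results of these data known. Of 22 other replication factors, 0 passed, against 1.92% of all genes as higher and 1.69% as lower. RNASEH2A, the catalytic subunit of the nuclease that removes RNA primers and stray ribonucleotides, differed by −0.28 ± 0.08 (SE; limma, adjusted p = 0.0898), and MCM9 by −0.37 ± 0.11 (adjusted p = 0.128). The median log2 fold change of the list was −0.12, and −0.08 without scrambled replicate 3. Of 15 measured fork protection and alternative clamp loading genes, 1 rose and 0 fell. HUS1, a subunit of the checkpoint clamp that resembles PCNA, read 9.25, 9.29 and 9.17 in the knockdown and 8.81, 8.82 and 8.89 with scrambled shRNA. It rose by 0.40 ± 0.07 log2 units (SE; adjusted p = 0.0160), without overlap, and by 0.42 without scrambled replicate 3 (adjusted p = 0.0144). CHTF8, of an alternative loader, differed by −0.16 ± 0.07 (adjusted p = 0.267), and the median of the list was −0.05.

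Of 11 measured nucleotide supply genes, 1 rose and 0 fell, against 1.92% of all genes as higher and 1.69% as lower. The gene that rose was RRM2, the regulated subunit of ribonucleotide reductase. RRM2 read 9.23, 9.38 and 9.27 in the knockdown and 8.790, 8.879 and 9.001 in the scrambled arrays. It rose by 0.40 ± 0.08 log2 units (SE; adjusted p = 0.0279), and by 0.46 without scrambled replicate 3 (adjusted p = 0.0146). SAMHD1, which degrades deoxynucleotides, read 8.27, 8.42 and 8.37 against 8.77, 8.88 and 9.50. Its groups did not overlap, and the difference of −0.70 ± 0.17 (SE) missed the threshold with all arrays (adjusted p = 0.0578) and passed without scrambled replicate 3, at −0.47 (adjusted p = 0.0140). The median of the list was −0.20, or −0.14 without that array. Of 8 chromatin assembly and maintenance methylation genes, 0 passed, with ASF1B, a histone chaperone, at −0.20 ± 0.06 (adjusted p = 0.132) and ASF1A at −0.21 ± 0.10 (adjusted p = 0.286), or −0.11 without scrambled replicate 3; the median of this list was −0.16, and −0.04 without scrambled replicate 3.

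Among 24 measured genes of G1/S control and E2F, 0 rose and 2 fell, against 1.92% of all genes as higher and 1.69% as lower. CCND2, a D-type cyclin, read 7.18, 7.26 and 7.28 in the knockdown and 7.89, 7.92 and 8.46 with scrambled shRNA. It fell by 0.85 ± 0.14 log2 units (SE; adjusted p = 0.0153), and by 0.67 without scrambled replicate 3 (adjusted p = 0.00304). CDK6, a kinase partner of D-type cyclins, read 9.17, 9.21 and 9.28 against 9.56, 9.59 and 9.71, and fell by 0.40 ± 0.07 (adjusted p = 0.0183), or by 0.36 without that array (adjusted p = 0.0246). The median of the list was −0.13, and −0.07 without scrambled replicate 3. Of 24 measured mitosis genes, 0 passed (median −0.08, and −0.04 without scrambled replicate 3), with CCNB1, the mitotic cyclin, at −0.26 ± 0.08 (adjusted p = 0.118) and NDC80 at −0.21 ± 0.08 (adjusted p = 0.188).

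Scrambled replicate 3 was high in these lists too. It was the highest array for 15 of 22 other replication factors, 17 of 24 mitosis genes and 13 of 14 measured ribosome biogenesis genes, against 28.9% of all genes. Its median deviation was 0.43 log2 units in the ribosome biogenesis list, where 0 of 14 passed, against 3.61% of all genes. There WDR74 differed by −0.34 ± 0.11 (limma, adjusted p = 0.130) and DKC1 by −0.35 ± 0.12 (adjusted p = 0.171). Without that array WDR74 differed by −0.21 and DKC1 by −0.20, and the median of the list went from −0.18 to −0.06. The part of growth state in the replication result was not tested.

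**Figure D4:**
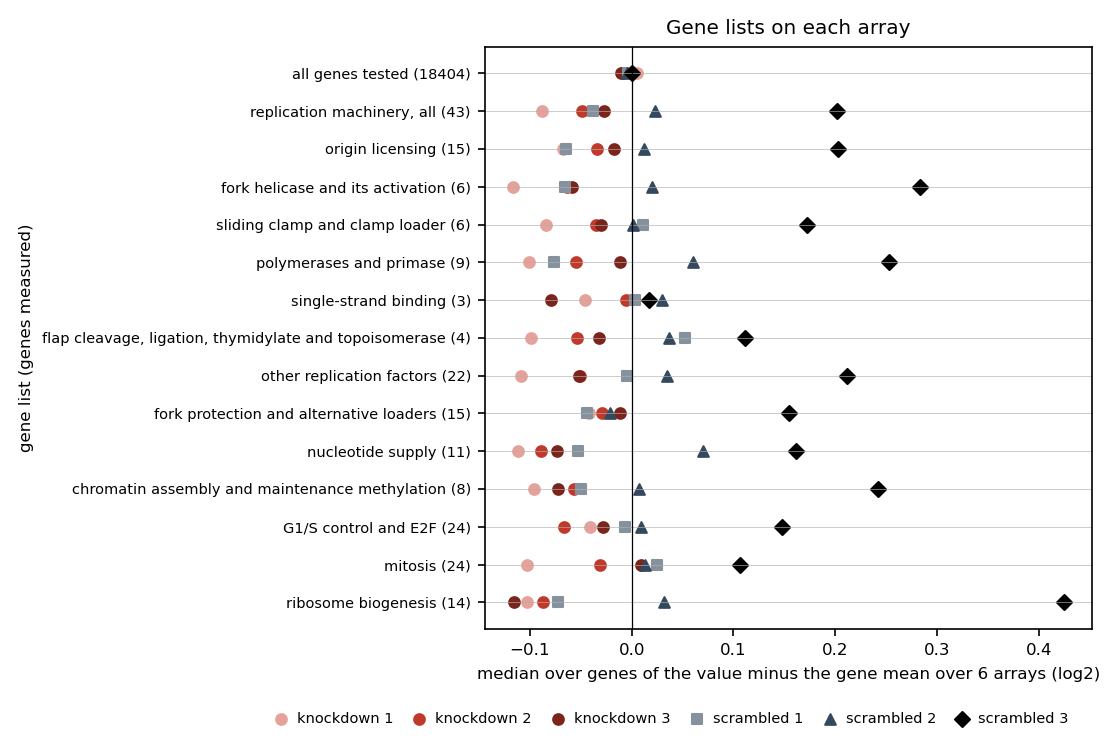
For each gene list, the median over its genes of the log2 value minus the gene mean over the 6 arrays, 1 symbol per array. Scrambled replicate 3 sits at 0.20 for the 43 replication genes and at 0.43 for ribosome biogenesis, and scrambled replicate 1 lies among the knockdown arrays for the 43 genes.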

How the data were processed

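Total RNA was hybridised to 1 Affymetrix whole-transcript array per sample, per the labels' protocols, and the deposited log2 values were made with RMA, per the submitters' processing notes. Its version and library files were not stated in these sources. RMA corrects background, equalises the arrays by quantile normalisation and compresses changes of dim probe sets. Of 32321 probe sets, 19158 carry 1 gene symbol in the platform annotation and were used. For genes with several, the one with the highest mean was kept, which left 18404 genes; each replication gene had 1. No dim probe sets were filtered.

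Groups came from the labels. With 3 arrays a group, their number limits the precision. They were compared by lmFit and eBayes of limma (version 3.58.1, under R 4.3.3), two-sided and without covariates. P-values were adjusted by Benjamini-Hochberg over all genes, with a threshold of 0.05. The fit was tested on simulated data with independent genes and the same spread on every array. That setting holds no array that stands apart, so it does not cover the effect of scrambled replicate 3. Alternatives were other scaling, filters, priors, array weights, probe sets, thresholds, the replicate block and each array left out. The genes and lists were chosen with earlier results of these data known. Values on every array are printed for genes that passed, the 3 with the smallest p in each role and those whose groups did not overlap; of each other list, for genes that passed, with the 2 smallest p named. MCM5, MCM6, ORC1, ORC4 and SAMHD1 were added after their values were seen.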

Additional observations from a re-analysis of the deposited data

How the results depend on the processing

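Of 43 replication genes, 32 kept the sign of their log2 fold change under all 15 alternative fits, and 0 passed in each of these fits except array weights, where 7 did. The other 11 had a difference near 0 or one that rested on 1 array. Array weights gave ORC1 0.0254, ORC3 0.0079, MCM6 0.0619, GINS2 0.00046 and GINS3 0.0274. Another quantile normalisation gave ORC3 0.0275 and GINS2 0.0016, and centring on array medians gave RPA1 −0.0022. With 1 array left out, values ran from −0.228 to 0.0341 for ORC1, −0.0136 to 0.0095 for ORC3, −0.0447 to 0.182 for ORC4, −0.0696 to 0.0220 for ORC6, −0.151 to 0.147 for MCM6, −0.0833 to 0.0689 for GINS2, −0.169 to 0.0208 for GINS3, −0.0513 to 0.0904 for RFC4, −0.0541 to 0.0809 for POLE, −0.0237 to 0.0281 for RPA1 and −0.0656 to 0.0396 for RPA3.

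Array weights moved the median of the clamp and loader genes to −0.0568 and that of RPA to −0.0941. With 1 array left out, the median ran from −0.301 to −0.0724 for polymerase and primase genes and from −0.0656 to 0.0079 for RPA. The count of changed genes, 665, was 3511 with array weights, 165 over all deposited probe sets and 1207 at an adjusted p under 0.1. It was 181, 152 and 175 without knockdown replicates 1, 2 and 3. Without scrambled replicates 1, 2 and 3 it was 694, 188 and 759. Each fit with 1 array left out has fewer residual degrees of freedom than the main fit, and these counts lay on both sides of 665. The replicate numbers gave no sign of pairing, though 3 arrays a group cannot exclude it. Deviations from the group means correlated at −0.0539, −0.0666 and −0.0334 for same-numbered arrays. For differently numbered arrays the correlations ran from −0.0443 to 0.0986. The replicate block called 367 genes and 0 of the 43. Leaving out each array, an alternative added after seeing the data, gave 12 to 24 of the 43 genes lower without overlap, where 17.9%, 16.8% and 16.7% of all genes were so without knockdown replicates 1, 2 and 3, and 20.1%, 17.3% and 17.9% without scrambled replicates 1, 2 and 3.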
